A study of Mus musculus with 2 samples.

Results

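The Ifi200 genes are a mouse gene cluster on chromosome 1, and 7 of them were described here by symbol: Mndal, Ifi203, Ifi204, Ifi207, Ifi209, Ifi211 and Ifi213. All 7 were among the 31053 features measured. They were selected on their levels in the library labelled IRF8KO against the wild-type (WT) library, so that contrast is given as a description and supports nothing. The study compared single microglia, the macrophages that live in brain tissue, from WT mice and from mice labelled IRF8KO. IRF8 is a transcription factor that microglia need for their mature state. Both groups were C57BL/6 females aged 3 months without treatment, and each was 1 droplet library of sorted microglia pooled from 3 mice, so no value has a replicate and no test of genotype exists. The title of one library reads IRF8KO while its genotype entry reads WT. It is called the library labelled IRF8KO, and its cells IRF8KO cells. The driver or extent of the Irf8 deletion is not given in the sources used here.

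PYHIN proteins, the family to which the Ifi200 genes belong, mostly join a pyrin domain, which binds other proteins, to a HIN domain, which binds DNA. Aim2, the best known member, senses DNA in the cytosol and starts an inflammasome with the adaptor Pycard, while Ifi204 is regarded as the mouse counterpart of human IFI16, a DNA sensor that acts through STING. Most Ifi200 genes are inducible by interferon, as are Ifit1, Ifit3 and Isg15, which are common markers of an interferon response in microglia. Levels of those 3 genes were used to separate cells, so as to ask whether the Ifi200 genes were higher in IRF8KO cells that had no UMI of any of them. UMIs are molecular tags, and each one stands for 1 captured transcript.

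The cells described had 1000 or more UMIs, 500 or more genes, no more than 10% of UMIs from mitochondrial genes, and under 2% in the 6 neutrophil genes Camp, Ngp, S100a8, S100a9, Lcn2 and Ltf. These were 3304 of 3504 WT barcodes with 18543061 UMIs and 5007 of 5303 IRF8KO barcodes with 18980263 UMIs. The median WT cell held 3204.5 UMIs and the median IRF8KO cell 2933. The neutrophil share lay far from its limit: the highest cell inside had 0.232% and the lowest cell outside 2.36%. The libraries shared 5 barcodes. In WT cells Irf8 itself stood at 794 CPM, the counts scaled to a total of 1000000 UMIs, and in IRF8KO cells at 669 CPM. Transcripts of a disrupted gene can still be counted outside the deleted part, so this level checks no label. All 11 microglia markers had UMIs in both libraries, at 33372 CPM summed in WT and 17329 CPM in IRF8KO cells, and Sall1 was at 511 and 2.85 CPM. The 11 border macrophage markers summed to 257 CPM in WT, where 5 had UMIs and Ms4a7, Clec12a, Cd163, Lyve1, F13a1 and Cd38 were at 0, and to 3537 CPM in IRF8KO cells, where all had UMIs. The 7 monocyte markers summed to 7.98 CPM in WT and 23.7 CPM in IRF8KO cells, with UMIs for 4 of them in each library. One of the 7, Ly6c2, was at 0 in both. The part of these marker levels in the results below was not tested.

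Promoter stretches of 5 members are shown because each holds the letters GAAANNGAAA, the core of the interferon-stimulated response element (ISRE), shortly before the start of the gene. The sequences are RefSeq promoters of GRCm38.p6, read 5′ to 3′ on the gene's strand, with the core in capitals. Each is 60 bases long.
Mndal, chr1:173880189-173880248, minus strand: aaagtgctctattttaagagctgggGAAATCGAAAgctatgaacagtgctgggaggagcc
Ifi203, chr1:173942493-173942552, minus strand: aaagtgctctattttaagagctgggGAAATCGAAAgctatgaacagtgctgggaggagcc
Ifi207, chr1:173741816-173741875, minus strand: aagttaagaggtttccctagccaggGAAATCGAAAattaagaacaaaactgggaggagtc
Ifi211, chr1:173913049-173913108, minus strand: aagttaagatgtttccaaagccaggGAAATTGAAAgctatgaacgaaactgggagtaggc
Ifi213, chr1:173599311-173599370, minus strand: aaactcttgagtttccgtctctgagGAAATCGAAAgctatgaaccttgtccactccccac

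The windows of Mndal and Ifi203 were identical at 60 of 60 bases. That of Ifi207 matched them at 39 bases, that of Ifi211 at 41 and that of Ifi213 at 34. The first base of the core lay 36 bases before the start of Mndal, 35 before Ifi203, 41 before Ifi207, 37 before Ifi211 and 73 before Ifi213. Searched on both strands of 300-base promoter windows, the core was in 5 of the 6 members with an entry, in 9 of 12 PYHIN genes, and in 3.99% of 27025 genes (3.44% of 32851 promoters). Ifi209 was the member whose window had no match, and Ifi204 had no entry. The composite element GGAANNGAAA, at which IRF8 is known to bind DNA with the myeloid factor PU.1, was in 2.72% of promoters and in 0 of the 12 PYHIN genes. The interferon-gamma element TTCNNNGAA was in 8.30% of promoters and in 1 of the 12, Ifi202b. The ISRE core and the composite element differ at 1 of their fixed letters, so they cannot match at the same place. A match is a description of letters, and no binding was measured.

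Mndal, a nuclear protein named for its likeness to the myeloid cell nuclear differentiation antigen, was nearly absent from WT cells and abundant in IRF8KO cells. The WT library held 1 Mndal UMI, at 0.0539 CPM, and the library labelled IRF8KO 1861, at 98.0 CPM (93.6 to 103, exact 95% Poisson interval). The log2 ratio was 10.83, with an exact 95% interval of 8.35 to 16.13 that is wide because it rests on 1 WT UMI. These intervals, and those that follow, cover counting error only and say nothing of the spread between mice.

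Ifi204 and Ifi207 completed a group of 3 members near 100 CPM or above in IRF8KO cells. Ifi204 had 242 UMIs in WT (13.1 CPM) and 3124 in the other library (165 CPM), a log2 ratio of 3.66 (3.47 to 3.85). Ifi207 had 28 UMIs in WT (1.51 CPM) and 2532 in the other library (133 CPM), a log2 ratio of 6.47 (5.93 to 7.06). The order of the 3 levels, Ifi204 over Ifi207 over Mndal, was the same in both libraries. CPM values are not divided by transcript length, so the order compares captured molecules.

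The remaining members were scarcer. Ifi213 had 13 UMIs in WT (0.701 CPM) and 387 in IRF8KO cells (20.4 CPM), a log2 ratio of 4.86 (4.07 to 5.78). Ifi211 had 4 and 153 UMIs (0.216 and 8.06 CPM), a log2 ratio of 5.22 (3.84 to 7.12). Ifi203 had 0 UMIs in WT and 174 in IRF8KO cells (9.17 CPM), which is at least 56.7-fold higher against a floor of 3 counts over the WT group. Ifi209 was the member with the smallest ratio: 183 UMIs in WT (9.87 CPM), 435 in IRF8KO cells (22.9 CPM) and a log2 ratio of 1.22 (0.96 to 1.47). It was also the second most abundant member in WT.

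The 7 members together had 471 UMIs in WT (25.4 CPM) and 8666 in IRF8KO cells (457 CPM), a log2 ratio of 4.17 (4.03 to 4.30). Ifi204 and Ifi209 supplied most of the WT sum, whereas Ifi204, Ifi207 and Mndal supplied most of the IRF8KO sum. Of the 8852 genes that reached 10 CPM in either library, 231 (2.61%) were at least 4-fold higher in IRF8KO cells, and so were 4 of the 5 members at that level. The members were picked on this contrast, so nothing is read from that count. The median log2 ratio of all 8852 genes was -0.28, and TMM scaling, which equalises the bulk of genes between libraries, raises every ratio over all cells by 0.25.

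**Figure D1:**
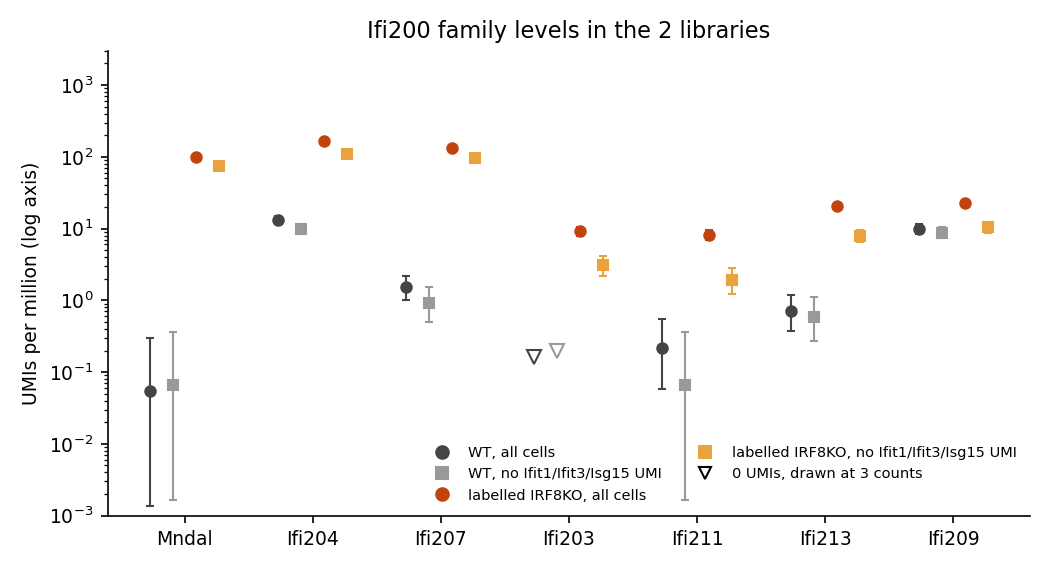
Level of each member in CPM on a log axis, for WT cells (grey) and IRF8KO cells (orange), over all cells (circles) and over cells with no Ifit1, Ifit3 or Isg15 UMI (squares). Bars are exact 95% Poisson intervals, and open triangles mark 0 UMIs, drawn at 3 counts. Mndal lies at 0.0539 CPM in WT and 98.0 CPM in the library labelled IRF8KO, while the squares of Ifi209 lie at 8.78 and 10.4 CPM.

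Other PYHIN genes of the same cluster were not alike. Aim2 had 1845 UMIs in WT (99.5 CPM) and 1593 in IRF8KO cells (83.9 CPM), a log2 ratio of -0.25 (-0.34 to -0.15), which TMM scaling turns to 0.01 (-0.09 to 0.11). Ifi206 had 9 and 298 UMIs, a log2 ratio of 5.02 (4.07 to 6.16). Ifi208 had 0 and 149 UMIs and was at least 48.5-fold higher in IRF8KO cells, and Ifi205 had 0 and 30 UMIs and was at least 9.77-fold higher. Ifi214 had 14 and 31 UMIs, a log2 ratio of 1.11 (0.16 to 2.14). Ifi202b, which encodes a HIN protein without a pyrin domain that restrains Aim2, had 0 UMIs in both libraries.

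The members lie within 376 kb, at chr1:173566283-173942672 of GRCm38, and Aim2 is the PYHIN gene at one end of the cluster. Within 1 Mb on either side, 32 other genes were in the table, most of them olfactory receptor genes at or near 0. Only Slamf8 and Dusp23 of these 32 reached 10 CPM, and they had log2 ratios of -3.60 and 0.24. Counts of some members are uncertain because their copies are alike. In GENCODE M21 the Mndal gene model, which starts next to Ifi203 and not at the RefSeq start used above, spans Ifi211 and overlaps Ifi203, and 85.2% of 50-base words in the last 400 bases of Ifi211 transcripts were shared with Ifi205 or Mndal. That share was 40.2% for Ifi209 (with Ifi214), 24.9% for Mndal, 18.5% for Ifi213 and 10.1% for Ifi203. For Ifi207 and Ifi204 it was 2.97% and 1.28%, so the counts of this pair depend least on how shared reads were handled.

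**Figure D2:**
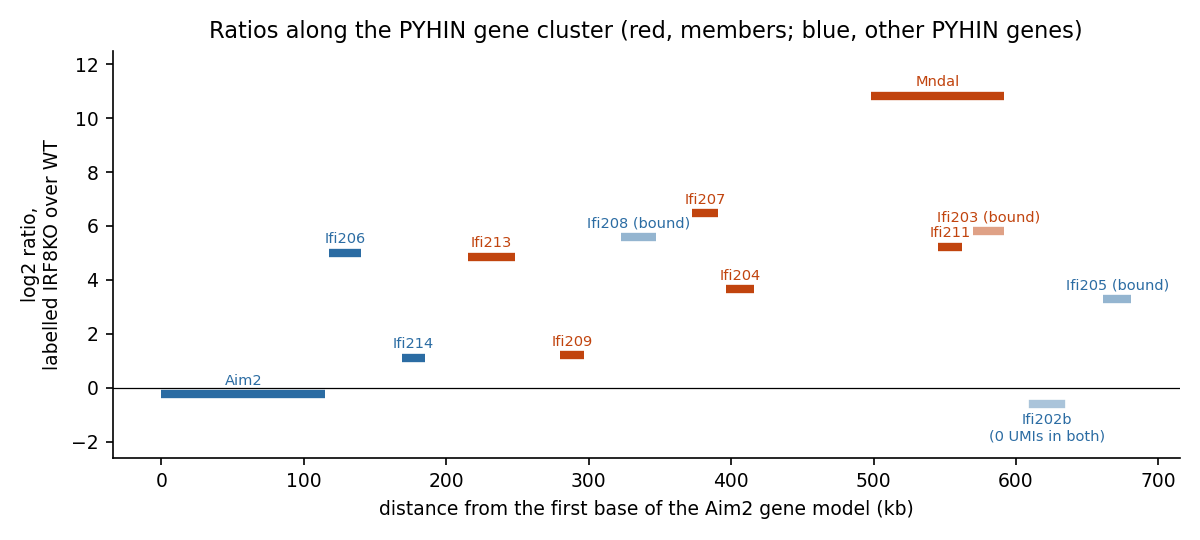
Log2 ratio of the library labelled IRF8KO over WT for PYHIN genes, drawn at each gene model's span in kb from the first base of Aim2. Red bars are members and blue bars other PYHIN genes, and pale bars are lower bounds or, for Ifi202b, 0 UMIs in both libraries. Aim2 lies just below 0, Ifi209 and Ifi214 near 1 and the other genes with UMIs higher.

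In IRF8KO cells without interferon-marker UMIs, Mndal, Ifi204 and Ifi207 were still far above WT, and Ifi209 was close to it in the main scaling. Of the IRF8KO cells, 3872 (77.3%) had no UMI of Ifit1, Ifit3 or Isg15, and 3082 WT cells had none. Mndal had 960 UMIs in these IRF8KO cells (73.7 CPM) against 1 in these WT cells, a log2 ratio of 10.14 (7.65 to 15.44). Ifi204 had 1436 against 151 UMIs (110.2 and 9.90 CPM), a log2 ratio of 3.48 (3.23 to 3.73). Ifi207 had 1235 against 14 UMIs (94.8 and 0.917 CPM), a log2 ratio of 6.69 (5.94 to 7.57).

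Ifi209 had 135 UMIs in IRF8KO cells without the markers (10.4 CPM) and 134 in such WT cells (8.78 CPM). Its log2 ratio of 0.24 had an interval of -0.12 to 0.59, which holds 0 and does not reach the 1.22 seen over all cells. With TMM scaling it was 0.48 (0.12 to 0.84), which no longer holds 0, against 1.47 (1.22 to 1.73) over all cells. Ifi213 had 103 against 9 UMIs, a log2 ratio of 3.74 (2.76 to 4.91). Ifi211 had 25 against 1 UMI, a log2 ratio of 4.87 (2.26 to 10.23). Ifi203 had 40 against 0 UMIs and was at least 15.6-fold higher. A pseudocount of 1 CPM, which shrinks ratios over a low WT level, brought Ifi211 to 1.45, Ifi213 to 2.49, Ifi203 to 2.02 and Mndal to 6.13 in these cells. All 3 scarce genes were thus higher in IRF8KO cells of this kind too, at levels of 7.91, 1.92 and 3.07 CPM.

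The 7 members summed to 302 CPM in IRF8KO cells without the markers and 20.3 CPM in such WT cells, a log2 ratio of 3.89 (3.73 to 4.07). These IRF8KO cells held 45.4% of the members' UMIs in that library. In this contrast 212 of 8852 genes (2.39%) were at least 4-fold higher in IRF8KO cells, and among the 4 members with at least 10 CPM the 3 abundant ones were. Most cells of the contrast on which the members were picked are in this one too, so nothing is read from that count. Aim2 had a log2 ratio of -0.25 here as well.

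A cell of few UMIs can lack the 3 markers by chance of sampling, so deeper cells were also compared. IRF8KO cells without the markers had a median of 2847 UMIs, and those with them 3403. Among cells with at least 5000 UMIs and no marker UMI, the log2 ratio was 9.24 for Mndal, 3.46 for Ifi204, 6.54 for Ifi207 and -0.01 (-0.68 to 0.62) for Ifi209. In the 58 IRF8KO cells with at least 10000 UMIs and none of the markers, a limit chosen after the data were seen, Mndal stood at 70.1 CPM, Ifi204 at 98.9 CPM and Ifi207 at 94.3 CPM. The levels of these 3 genes in marker-free cells thus moved little with depth. In the same 58 cells Ifi213 had 0 UMIs (up to 4.24 CPM), against 2 UMIs in such WT cells (0.379 CPM), so its rise was not seen there. Ifi203 and Ifi211 had 6 and 4 UMIs in the 58 cells, against 0 in such WT cells. The planned exclusion of every cell with a UMI of any interferon response gene left 42 IRF8KO and 59 WT cells. It lowered the members' summed log2 ratio to 2.56 and that of Ifi207 to 3.14, with Ifi204 at 3.88, each of the 2 genes resting on 1 WT UMI. A narrower exclusion, chosen after the data were seen, removed every cell with a UMI of any of 25 interferon response genes that were under 20 CPM in WT. It left 2219 IRF8KO and 2261 WT cells, with Mndal at 66.7 CPM against 0 UMIs in WT, Ifi204 at 101 against 8.15 CPM and Ifi207 at 84.2 against 0.608 CPM. Ifi209 stood at 8.82 (6.70 to 11.4) against 5.11 CPM (3.68 to 6.90) in those cells, a log2 ratio of 0.79 (0.19 to 1.40) that excludes 0.

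**Figure D3:**
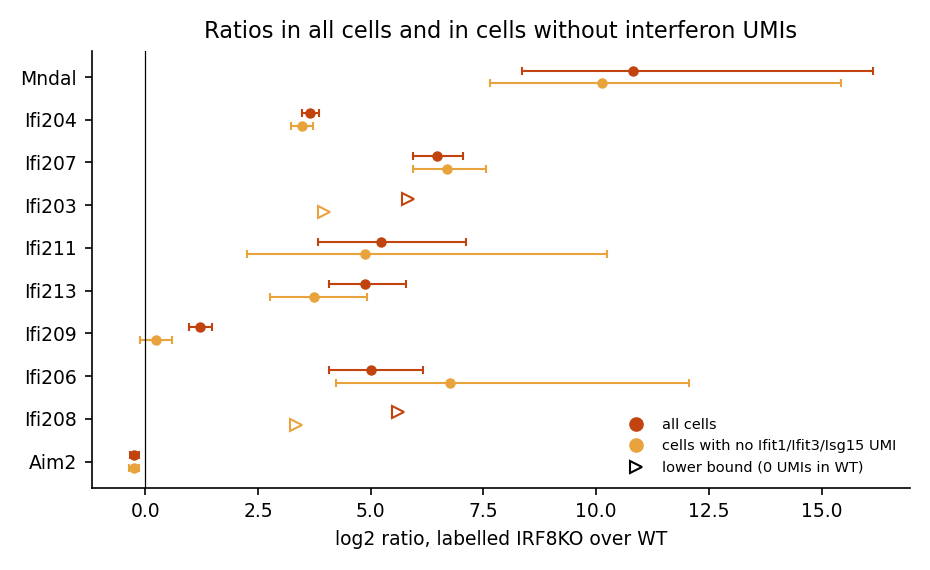
Log2 ratio of the library labelled IRF8KO over WT in all cells (red) and in cells with no Ifit1, Ifit3 or Isg15 UMI (yellow), for the 7 members and for Ifi206, Ifi208 and Aim2. Bars are exact 95% intervals from counting error, and open triangles are lower bounds. The paired intervals overlap for every gene drawn with intervals except Ifi209, which goes from 1.22 to 0.24.

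Within the library labelled IRF8KO, every member was nevertheless lower in cells without the markers than in the 1135 cells with them. The log2 ratio of cells without to cells with was -1.04 for Mndal (-1.17 to -0.91), -1.20 for Ifi207 (-1.31 to -1.09) and -1.36 for Ifi204 (-1.47 to -1.26). It was -2.28 for Ifi209 (-2.59 to -1.98), -2.59 for Ifi213, -2.87 for Ifi203 and -3.49 for Ifi211. The ratios of the 4 scarcer members were thus all lower than those of Mndal, Ifi207 and Ifi204. Intervals did not overlap between Ifi204 and Ifi209, nor between Mndal and Ifi204 or between Ifi209 and Ifi211 (-4.17 to -2.86). They treat UMIs as independent, though 135 of 174 Ifi203 UMIs lay in 50 cells, so no grouping is read from them. All 7 members were at least 2-fold lower in cells without the markers, against 90 of 8334 genes (1.08%) at 10 CPM or more in either class. Ifi203, Ifi211 and Ifi213 reached 10 CPM only in cells with the markers, where they are high, so nothing is read from that count. In cells with at least 5000 UMIs, Mndal (-0.86) and Ifi207 (-0.95) no longer passed 2-fold. Of the other PYHIN genes, Ifi206 had a ratio of -2.29, Ifi208 -3.37 and Ifi214 -3.51, Ifi205 had 0 and 30 UMIs, and Aim2 had a ratio of -0.02 (-0.18 to 0.13).

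The same cells were also divided into classes by their number of marker UMIs. These classes are a finer view of the same counts and no second result. Mndal stood at 73.7 CPM in IRF8KO cells with 0 marker UMIs, at 101 CPM with 1, at 112 CPM with 2, at 141 CPM with 3 to 5 and at 291 CPM in the 185 cells with 6 or more. Ifi204 went from 110.2 to 578 CPM over these classes, and Ifi207 from 94.8 to 363 CPM. Ifi209 went from 10.4 to 144 CPM, Ifi213 from 7.91 to 126 CPM, Ifi203 from 3.07 to 75.1 CPM and Ifi211 from 1.92 to 71.1 CPM. The log2 ratio of the lowest class to the highest was -1.98 for Mndal (-2.15 to -1.80) and -5.21 for Ifi211 (-5.91 to -4.56). The median cell of the highest class held 3970 UMIs.

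In WT cells, Ifi204, Ifi207 and Ifi209 were also lower without marker UMIs, with intervals below 0, whereas Mndal was too scarce to compare. Ifi211 had 1 UMI without and 3 with, so its interval of -9.52 to -0.16 rests on counts at or under the floor of 3. The 222 WT cells with a marker UMI were deeper, with a median of 5714.5 UMIs against 3152.5 in those without, and 160 of them had only 1 marker UMI. They had 91 Ifi204 UMIs (27.7 CPM) and 14 Ifi207 UMIs (4.26 CPM), and their Mndal count was 0. The floor of 3 counts over these cells is 0.914 CPM, above the 0.0655 CPM of Mndal in WT cells without markers. In the 8 WT cells with 6 or more marker UMIs, Ifi204 reached 121 CPM from 17 UMIs. Mndal and Ifi203 had 0 UMIs there, where the floor of 3 counts is 21.3 CPM. Against the floor of 0.914 CPM, IRF8KO cells without the markers were at least 80.7-fold higher in Mndal than WT cells with them. The same comparison gave a log2 ratio of 4.47 (3.72 to 5.35) for Ifi207, 1.99 (1.69 to 2.31) for Ifi204 and -0.53 (-1.01 to -0.02) for Ifi209.

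**Figure D4:**
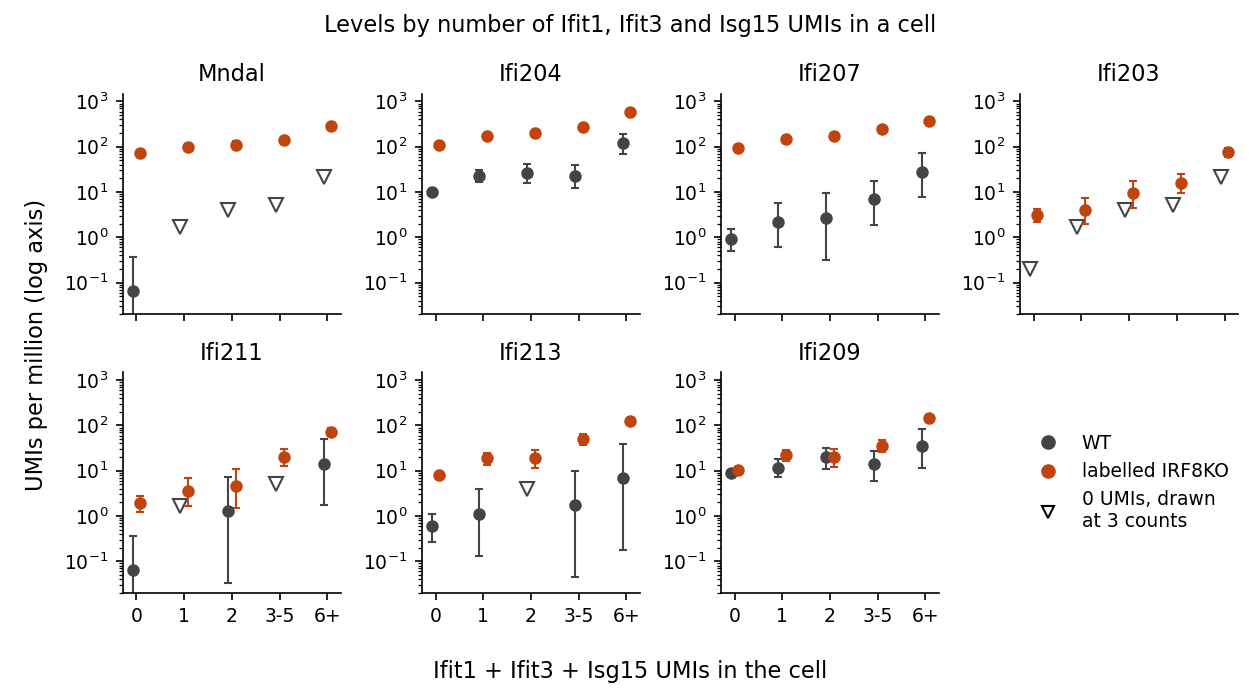
Level of each member in CPM, on log axes, by the number of Ifit1, Ifit3 and Isg15 UMIs in a cell, for WT (grey) and IRF8KO cells (red), with exact 95% Poisson intervals and open triangles at 3 counts where no UMI was seen. Mndal runs from 73.7 to 291 CPM in IRF8KO cells, and the points of Ifi209 in the 2 libraries lie close together in cells with 0 marker UMIs.

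Before thinning, Ifi204 had a UMI in 1716 IRF8KO cells, Ifi207 in 1500, Mndal in 1236, Ifi209 in 291, Ifi213 in 270, Ifi211 in 117 and Ifi203 in 89. When each cell was thinned to 2000 UMIs, which left out 285 shallower WT and 498 shallower IRF8KO cells, 4.54% of 3019 WT cells and 47.1% (45.6 to 48.6) of 4509 IRF8KO cells had a UMI of any member. Without thinning these shares were 10.2% and 59.9%. Ifi204 was found in 23.4% of thinned IRF8KO cells, Ifi207 in 19.9% and Mndal in 15.5%, against 2.15%, 0.331% and 0.0331% of WT cells. Among thinned IRF8KO cells without marker UMIs, 40.5% (38.8 to 42.1) had a UMI of any member, against 68.3% of those with them. For Ifi209 the shares in cells without marker UMIs were 2.21% in IRF8KO cells and 1.82% in WT, with overlapping intervals.

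The share was also taken in cells of another type in the same library, and where their member UMIs came from was not tested. Of the 98 cells with at least 2% neutrophil UMIs, 7.14% had a member UMI at a median depth of 7057.5 UMIs. The members summed to 64.1 CPM over the 98 cells, all of it from that 7.14%. Mndal had 10 UMIs over the 98 cells (11.9 CPM). Of the 174 Ifi203 UMIs in the IRF8KO cells described, 23 were in 1 cell.

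Thinned IRF8KO cells with a Mndal UMI had an Ifi204 UMI in 32.2% of cases, against 21.8% of cells without one, and an Ifi207 UMI in 28.7% against 18.3%. Over the 5007 IRF8KO cells, Pearson's r of Mndal was 0.15 with Ifi204 and 0.14 with Ifi207. The genes whose level was most like the 7 members summed, among 3196 genes at 50 CPM or more, were Ifit3 (r = 0.39), Ifit1 (0.36), Isg15 (0.33), Oasl2 (0.32), Slfn5 (0.27), Rtp4 (0.25), Slfn2 (0.25) and Parp14 (0.24). For Mndal they were Ifit3 (0.23), Isg15 (0.22), Ifit1 (0.21), Oasl2 (0.21) and Slfn5 (0.18). These weak correlations describe sparse counts of cells that share a library and its depth, and they are no finding.

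Summed, the members were above the WT level in 6 of 7 clusters of IRF8KO cells. The cells were clustered without the members, the other PYHIN genes and an interferon response list, and no cluster had enough markers for a cell type name. The largest was cluster 1 with 2047 cells led by Crybb1 and Cck. Cluster 3, with 2032 cells, was led by Fxyd5 and Cd72, and cluster 2, with 707 deep cells, by Stard8. Members summed to 336, 434 and 438 CPM in clusters 1, 3 and 2. Mndal in their marker-free cells stood at 67.4, 78.3 and 77.4 CPM, and Ifi204 at 108, 113 and 112 CPM, each with overlapping intervals. Marker-free Ifi207 was at 72.3 CPM (64.6 to 80.6) in cluster 1 and 114 CPM (105 to 124) in cluster 3. The marker-free sum was 265 CPM (250 to 280) in cluster 1 and 331 CPM (316 to 347) in cluster 3. Intervals of those 2 clusters did not overlap for Ifi207 or the sum. Cluster 5 had 121 cells led by the MHC class II genes H2-Eb1 and H2-Aa and the chemokine Cxcl9. The monocyte marker Ccr2 was also among its leading genes. It had the highest level, 1463 CPM (1387 to 1542), and 80.2% of its cells had a UMI of Ifit1, Ifit3 or Isg15. Its 24 cells without marker UMIs had 401 CPM (321 to 496) of the members.

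Cluster 4, of 36 cells led by Sall1, a transcription factor of microglial identity, was the exception. It had 3 member UMIs in 125438, which is 23.9 CPM (4.93 to 69.9), against 25.4 CPM in WT and 336 to 1463 CPM in the other 6 clusters. Of the 3 UMIs, 1 was Mndal and 2 were Ifi204, and Aim2 in the cluster was at 63.8 CPM (27.5 to 126). That 1 UMI puts Mndal at 7.97 CPM (0.202 to 44.4), against 0.0539 CPM in WT. The likeness to WT is thus one of the sum and is not shown for Mndal. Sall1 stood at 319 CPM in cluster 4, against 511 CPM in WT and at most 2.08 CPM in the other clusters. Apoe, named after its values were seen, was at 8506 CPM in cluster 4, 478 CPM in WT and 53800.2 to 91577 CPM in the other clusters, and Ms4a7, a border macrophage marker, was at 0 in cluster 4 and in WT. None of its 36 barcodes was shared with the WT library. Whether these cells had the genotype of the library's label was not tested, and 36 cells are few. Clusters are defined by the cells' own genes, so these values are descriptions.

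**Figure D5:**
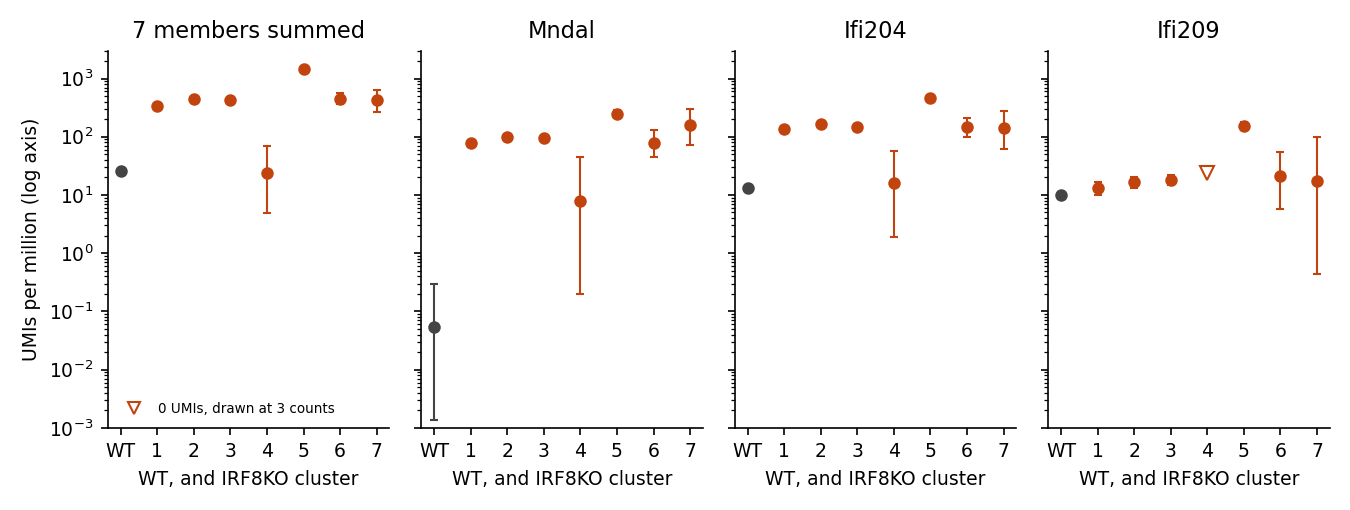
Level in CPM, on a log axis, of the 7 members summed and of Mndal, Ifi204 and Ifi209, in WT cells (grey) and in the 7 clusters of IRF8KO cells (red), with exact 95% Poisson intervals. Cluster 4 lies at 23.9 CPM for the sum, beside 25.4 CPM in WT, and cluster 5 lies highest at 1463 CPM.

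Other genes of these pathways differed from the members in part. On an interferon response list, which holds the 3 markers too, 36 of 42 genes reached 10 CPM in either library, with a median log2 ratio of 1.17, 31 higher and 15 at least 4-fold higher in IRF8KO cells. The largest ratios were those of Oas2 (7.47), which makes the activator of RNase L, Rsad2 (5.46), an antiviral enzyme, and Ifit3b (4.62). Oas2 had 2 WT UMIs, under the floor of 3 counts, so its size is uncertain, while Rsad2 had 11 and Ifit3b 21. In cells without the markers, 27 list genes had at least 10 CPM, with a median of 0.24. Of these, 5 were at least 4-fold higher in IRF8KO cells (Oas2, Slfn5, Oasl2, Irf7 and Rtp4) and 2 at least 4-fold lower (Phf11b and Phf11d). Oas2 rested on 1 WT UMI there. The split itself parts interferon genes: without the 3 markers, all 37 list genes at 10 CPM or more were lower in IRF8KO cells without the markers than in those with them. The medians of all genes were -0.28 and -0.29.

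On a DNA sensing list, 17 of 20 genes had at least 10 CPM, with a median log2 ratio of -0.15, and 2 were at least 4-fold higher in IRF8KO cells. These were Zbp1, a sensor of Z-form nucleic acids (3.24), and the cytokine Il1b (2.54), while the inflammasome adaptor Pycard had a ratio of -1.55. On an interferon signalling list, 14 of 18 genes had at least 10 CPM, with a median of -0.15, and 0 were at least 4-fold higher. The largest differences were Socs3 (0.63), a feedback inhibitor, the kinase Jak1 (-0.62) and Ifngr2 (-0.49), a chain of the interferon-gamma receptor. TMM scaling turns the medians of the DNA sensing and signalling lists to 0.11 and 0.10, and that of all genes to -0.03.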

How the data were processed

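Cell-by-gene UMI counts were used as the authors deposited them. Alignment and counting used Cell Ranger 3.1 on mm10, per the submitters' processing notes, with an annotation not given in the sources used here. A kit for full-length cDNA also stands in the labels' protocols, whereas the counts look like droplet data. Members and gene lists were chosen with earlier results of these data known. Counts were summed over cells and scaled to CPM (scipy 1.17.1), and 95% intervals were exact: Poisson for CPM, conditional binomial for ratios, Clopper-Pearson for shares. A count of 0 was replaced by 3 counts over the group for a bound. With 1 library per group no p-value was computed.

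Named genes were the 7 members, other PYHIN genes with at least 10 UMIs in a library, per other list the 3 genes farthest from a log2 ratio of 0, and the genes most correlated with the members; Apoe, Sall1, Ms4a7 and cluster leading genes were added after their values were seen. Scrublet in scanpy 1.11.5 called 0 WT and 3 IRF8KO cells (0.0588%), too few for a working call, so no doublets were removed. The highest-scoring 87 WT and 208 IRF8KO cells were removed as an alternative. IRF8KO cells were clustered on 2000 variable genes, 30 components, 15 neighbours and Leiden resolution 0.5. Ratios were tested on simulated data. TMM scaling (edgeR 4.0.16), other filters, thinning depths and splits were alternatives.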

Additional observations from a re-analysis of the deposited data

Results flagged for a closer look

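Member UMIs were also found in data outside the main comparison. In the 198 IRF8KO barcodes that the filter left out, the 7 members summed to 286 CPM (212 to 377), against 12.3 CPM (1.49 to 44.3) in the 200 WT barcodes left out. In the 98 IRF8KO cells with at least 2% neutrophil UMIs they summed to 64.1 CPM (48.1 to 83.6), above the 25.4 CPM of WT cells. The WT library had 0 cells of this kind, so no like comparison exists. Member UMIs lay in few of the 98 IRF8KO cells, and the interval treats them as independent counts.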

How the results depend on the processing

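With 1 library per group no replicate could be left out. No paired analysis was possible because each group is 1 library. The members' summed log2 ratio over all cells, 4.17, moved beyond its interval with TMM scaling (4.42), with mitochondrial and ribosomal protein genes taken out of the totals (4.32) and without Mndal (3.82). In cells without Ifit1, Ifit3 and Isg15 UMIs, the ratio of 3.89 moved to 4.13 with TMM, to 3.50 without Mndal and to 2.56 in cells with no UMI of the whole interferon response list. That last setting left 42 IRF8KO and 59 WT cells, with 3 Mndal UMIs. The exclusion of genes under 20 CPM in WT, added after the data were seen, gave 4.21. All of these ratios stayed above 0.

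The share of thinned IRF8KO cells with a member UMI, 47.1%, was 30.6% at 1000 UMIs, 70.2% at 4000 UMIs, 59.9% without thinning, 39.5% without Mndal and 41.1% in cells without the markers, which a separate random thinning gave as 40.5%. The ratio of IRF8KO cells without to with markers, -1.40, was -1.83 when cells were split after thinning, -1.01 with the whole interferon list, -1.14 at 5000 UMIs or more and -1.49 without Mndal. Ifi209 in cells without the markers ranged from -0.08 to 0.79 over 15 settings and was below 0 in 2, those with only cells of at least 5000 or 10000 UMIs. Ifi203 within the library labelled IRF8KO turned to 0.31 with the whole interferon list. That setting left 42 IRF8KO cells with 87898 UMIs in all, too few for a gene at 9.17 CPM in that library. Of 196 member values with an interval, 167 stayed inside it under the alternatives, 28 left it in the same direction and 1 reversed. Settings whose counts were too low to give a value were not counted. A pseudocount of 1 CPM lowered Mndal over all cells from 10.83 to 6.55, Ifi203 from 5.82 to 3.35 and Ifi211 from 5.22 to 2.90. At this depth, Mndal in WT rests on 1 UMI and Ifi203 on 0.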
